A study of Homo sapiens with 4 samples.

Results

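The SLC25 family is the set of solute carriers that move metabolites across the inner mitochondrial membrane. Members were taken as every gene of the deposited expression table whose symbol begins with SLC25A and a number, which gave 47 of 19205 genes: 45 carrier genes, the antisense RNA gene SLC25A5-AS1 and the pseudogene SLC25A51P1. Polyadenylated RNA was measured by RNA-seq in LNCaP cells, an established androgen-responsive line of human prostate cancer that was grown in medium with serum. The OE group, 2 libraries, overexpressed HOXD13, a homeobox transcription factor, and the EV group, also 2 libraries, carried the empty vector, which the labels call empty vehicle. Lentivirus infection and puromycin selection were common to both groups, while the promoter driving HOXD13, the number of clones and the time after infection are not stated. Nothing says that replicates were separate cultures, so p-values here reflect only how far libraries of a group spread, and that spread could be technical.

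SLC25 carriers are built from a repeated pair of membrane helices and alternate between a state open to the cytosol and a state open to the matrix. Most of them exchange one substrate for another, so that ATP leaves the matrix as ADP enters, malate enters as another dicarboxylate or phosphate leaves, and aspartate leaves as glutamate enters. Prostate epithelium is known for making and releasing citrate, a use of mitochondrial metabolism in which citrate has to cross the inner membrane.

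Total expected counts ranged from 8335067 to 8530487 in the OE libraries and from 6881110 to 7662978 in the EV libraries. HOXD13 had 88 and 104 expected counts in the OE libraries and 0 in both EV libraries. All 13 luminal prostate markers searched had a level in the files, with KLK3 at 3140 and 3255 FPKM in the OE libraries and 2044 and 2074 FPKM in the EV libraries. FPKM is the number of fragments per kilobase of transcript after scaling to library size, the scale used here to compare levels between genes. Among markers of other cell types, the summed level of the 4 fibroblast genes found was 6.48 to 6.89 FPKM in OE libraries and 6.24 to 7.21 FPKM in EV libraries, and the leukocyte markers CD3E and ITGAM were listed at 0 throughout. The markers found of leukocytes sum to 42.3 and 43.8 FPKM over 6 genes in the OE libraries and to 41.3 and 37.4 FPKM in the EV libraries. Most of that sum was LYZ, with 33.1 and 35.2 FPKM in OE libraries and 30.5 and 29.6 FPKM in EV libraries. CD68 had 6.85 to 9.65 FPKM and PTPRC 0.80 to 1.64 FPKM over the libraries. The markers found of endothelium sum to 4.15 and 4.31 FPKM over 4 genes in the OE libraries, and to 2.94 and 3.13 FPKM in the EV libraries. Of the 13 tested luminal markers, 9 were called higher and 1 lower at an edgeR adjusted p under 0.05. Of the 2 tested endothelial markers VWF was called higher (edgeR adjusted p = 0.00195). Beside these, 7.91% of all tested genes were called higher and 8.11% lower. The part of these markers in the results below was not tested.

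The 5 most abundant carriers fell modestly in the OE libraries, and 3 carriers that ranked 9, 16 and 17 among members by mean FPKM rose. Of the 47 members, 41 had enough counts to be tested, and 8 of these were called, which here means an edgeR quasi-likelihood p that stayed under 0.05 after Benjamini-Hochberg adjustment over the 14112 genes tested. The adenine nucleotide carriers SLC25A5 and SLC25A6, the phosphate carrier SLC25A3, the dicarboxylate carrier SLC25A10 and the glutathione carrier SLC25A39 were lower, and the iron carrier SLC25A37, the basic amino acid carrier SLC25A29 and SLC25A45, whose substrate is treated here as not settled, were higher. The 5 lower calls are 12.2% of the tested members, beside 8.11% of all tested genes, and the 3 higher calls are 7.32%, beside 7.91% of all tested genes. In either direction 19.5% of the tested members were called, against a background of 16.0%, so that the calls came at a share near that of the transcriptome. No member changed as much as 2-fold. The median log2 fold change was -0.03 over the 41 tested members and 0.0038 over all tested genes, and the median absolute log2 fold change was 0.13 over members and 0.14 over all genes. In bulk RNA, fewer cells that make a transcript and less of it per cell cannot be told apart.

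**Figure D1:**
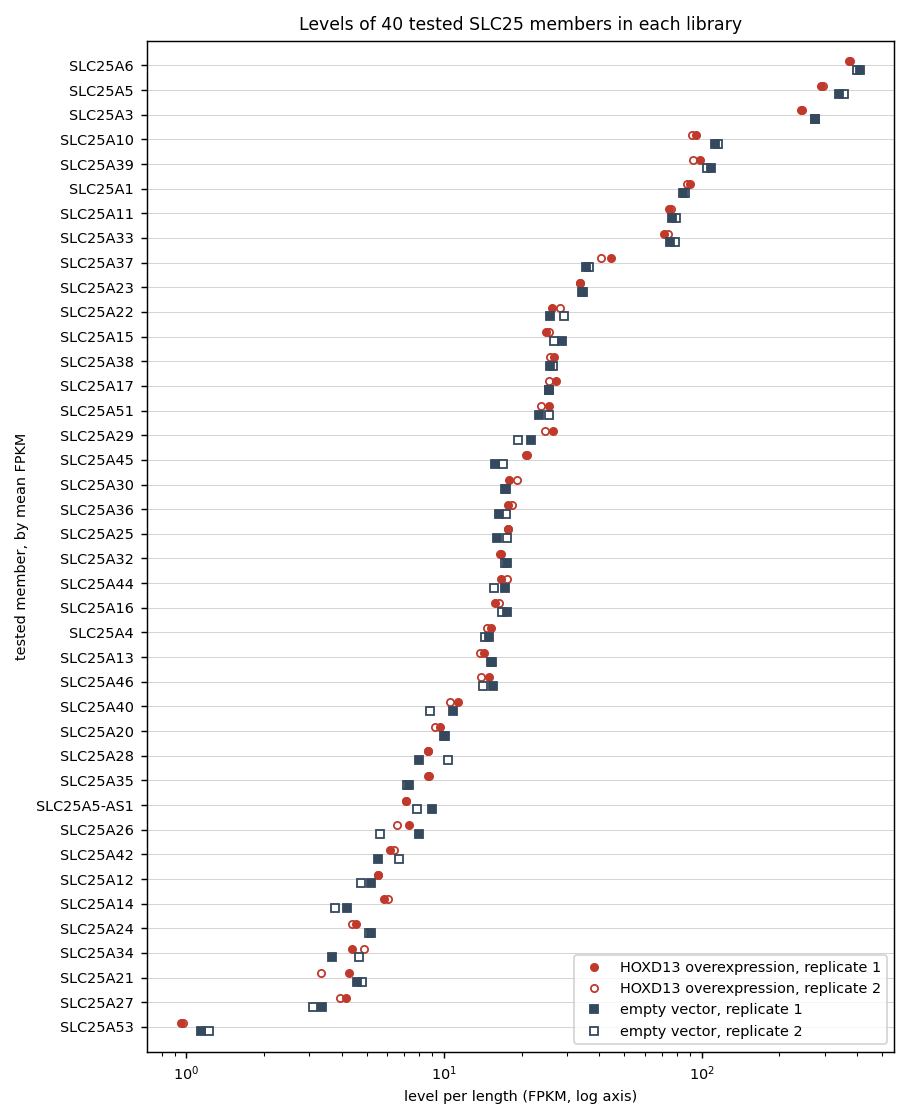
Level of each of 40 tested members (rows, from the highest mean at the top) in FPKM on a log axis, with circles for the 2 OE libraries and squares for the 2 EV libraries. SLC25A6, SLC25A5 and SLC25A3 stand apart at the top with 243 to 413 FPKM, and the symbols of a group lie close together for most members.

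The family spans a wide range of levels, and 3 carriers hold about as much of the summed level as all the others. SLC25A3, SLC25A5 and SLC25A6 made up 49.2% and 49.9% of the summed FPKM of all members in the OE libraries, against 52.17% and 51.96% in the EV libraries. The 8 most abundant members made up 72.4% and 72.9% in the OE libraries, against 75.3% in both EV libraries. The summed FPKM of the family was 1846 and 1834 in the OE libraries and 1975 and 1984 in the EV libraries. Both shares and sums were lower in both OE libraries than in either EV library, and these differences were not tested.

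SLC25A5 (gene ID 292, ANT2) and SLC25A6 (gene ID 293, ANT3) encode the ADP/ATP translocases that dividing and most other cells use, and their promoters are shown because this paralogous pair fell together. The promoter of SLC25A29 (gene ID 123096), a called rise, stands beside them. Each sequence is the 250 bases before the annotated start, 5′ to 3′ on the gene's strand, from RefSeq on GRCh38.p14: chrX:119468194-119468443 (+ strand) for SLC25A5, chrX:1392114-1392363 (- strand) for SLC25A6 and chr14:100306445-100306694 (- strand) for SLC25A29. Capitals mark GC-box letters, GGGCGG or its reverse complement.
SLC25A5: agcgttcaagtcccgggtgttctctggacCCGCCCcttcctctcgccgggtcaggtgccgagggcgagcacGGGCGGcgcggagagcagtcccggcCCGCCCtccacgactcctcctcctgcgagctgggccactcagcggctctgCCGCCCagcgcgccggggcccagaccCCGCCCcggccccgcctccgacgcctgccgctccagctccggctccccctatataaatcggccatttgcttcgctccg
SLC25A6: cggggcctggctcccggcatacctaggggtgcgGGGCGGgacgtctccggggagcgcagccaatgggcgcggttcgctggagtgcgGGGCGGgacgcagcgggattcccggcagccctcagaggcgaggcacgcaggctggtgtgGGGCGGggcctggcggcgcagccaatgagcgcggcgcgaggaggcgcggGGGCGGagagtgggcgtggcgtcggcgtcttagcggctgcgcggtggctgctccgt
SLC25A29: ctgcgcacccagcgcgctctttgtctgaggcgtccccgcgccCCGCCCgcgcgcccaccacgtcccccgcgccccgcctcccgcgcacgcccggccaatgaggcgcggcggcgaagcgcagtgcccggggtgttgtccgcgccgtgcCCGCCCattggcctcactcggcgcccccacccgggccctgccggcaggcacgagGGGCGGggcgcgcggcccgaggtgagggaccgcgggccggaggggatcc
SLC25A5 had 5 such matches, SLC25A6 had 4 and SLC25A29 had 3. A GC-box match was present in 70.6% of the 51 promoter windows of the 39 members with an entry, in 61.8% of the windows of tested genes and in 42.6% of all 35094 windows. Also searched on both strands were CCGGAAG (an ETS-type string), CACGTG (an E-box), the palindrome that NRF1 binds and CAATAAA (a HOXD13-type string), and overlapping matches merge into one capital run. None of these other strings was in the 3 windows shown. The ETS-type string was in 19.6% of the members' windows, beside 13.9% of the windows of tested genes and 8.52% of all windows, and the E-box in 13.7%, beside 8.24% and 6.34%. The NRF1 palindrome was in none of the members' windows, beside 1.66% and 1.03%, and CAATAAA in 1.96% (1 window), beside 2.26% and 3.67%. A missing match says only that those letters are not in the 250 bases.

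Among the adenine nucleotide and phosphate carriers, 3 of 7 tested fell and none rose, beside 8.11% of all tested genes called lower and 7.91% called higher. All 3 lie in the highest of 10 bins of tested genes by mean FPKM, where 35.4% of all genes were called lower. SLC25A5 had 290 and 296 FPKM in the OE libraries and 342 and 355 FPKM in the EV libraries. The OE values were both lower than either EV value, at a ratio of 0.832 (log2 fold change -0.27, SE 0.0357, edgeR adjusted p = 1.93e-06). SLC25A6 had 373 and 376 FPKM in OE libraries and 413 and 401 FPKM in EV libraries. Its groups were also apart, with a smaller log2 fold change of -0.14 (SE 0.0325, adjusted p = 0.0035). SLC25A3 (gene ID 5250), which imports the phosphate used by ATP synthase, had 245 and 243 FPKM in OE libraries and 276 and 275 FPKM in EV libraries (log2 fold change -0.19, SE 0.0344, adjusted p = 0.000187). The replicates of SLC25A3 differed from each other by far less than the groups did. SLC25A6 was no longer called in the fit that left out EV replicate 1 (adjusted p = 0.0824), with expression and length trends removed (log2 fold change -0.079, adjusted p = 0.0877) or with limma, and its adjusted p spanned 0.000388 to 0.0948 over the alternatives. The SLC25A5 and SLC25A3 calls held in all 12 alternative fits, with adjusted p up to 0.038 and 0.0479.

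The muscle and heart form of the translocase was not called. SLC25A4 (ANT1) had 15.2 and 14.7 FPKM in the OE libraries and 14.9 and 14.4 FPKM in the EV libraries. The groups overlapped, and the 95% interval of its log2 fold change ran from -0.13 to 0.16. SLC25A5 made up 42.8% and 43.1% of the summed FPKM of the 3 translocases in OE libraries, against 44.4% and 46.1% in EV libraries. SLC25A6 made up 55.0% and 54.8% in OE libraries, against 53.63% and 52.03% in EV libraries, and the difference in response between the paralogues was not tested. The 3 genes summed to 678 and 686 FPKM in OE libraries and to 769 and 770 FPKM in EV libraries. SLC25A4 had fractional counts, which arise where reads are divided among genes, while those of SLC25A5 and SLC25A6 were whole.

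SLC25A5-AS1, a noncoding RNA gene that overlaps SLC25A5 in the RefSeq annotation, had 7.12 and 7.09 FPKM in OE libraries and 8.97 and 7.85 FPKM in EV libraries. Its log2 fold change of -0.26 (SE 0.118) missed the threshold, with an edgeR adjusted p of 0.14. The libraries are not stated to keep strand, so reads of the antisense gene and of SLC25A5 cannot be told apart where they overlap.

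Carriers that exchange ATP-magnesium for phosphate did not pass the threshold. SLC25A23 had 33.7 and 33.7 FPKM in OE libraries and 34.4 and 34.7 FPKM in EV libraries, and its log2 fold change of -0.05 had a 95% interval from -0.16 to 0.059. SLC25A24 had a log2 fold change of -0.23 (95% interval -0.51 to 0.051) and SLC25A25 one of 0.07 (-0.092 to 0.22). SLC25A41, the fourth of this type, had 1 to 4 expected counts per library and was not tested.

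**Figure D2:**
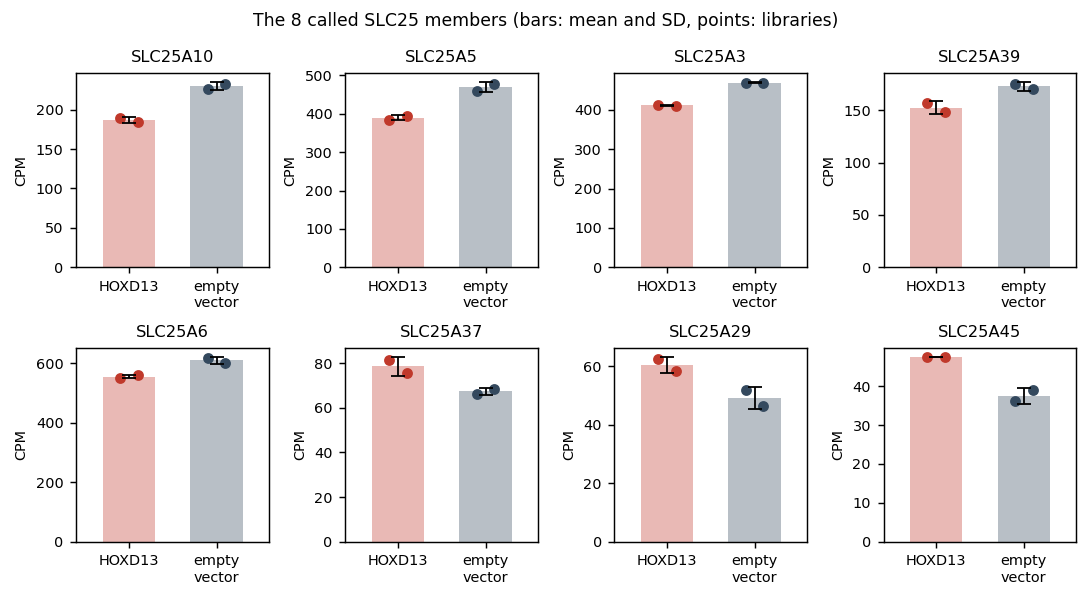
Counts scaled to a common library size by TMM (CPM) of the 8 called members, with OE libraries on the left and EV libraries on the right of each panel; bars show means, error bars SD and points the 2 libraries. In each panel the points of the groups do not overlap, with falls of SLC25A10, SLC25A5, SLC25A3, SLC25A39 and SLC25A6 and rises of SLC25A37, SLC25A29 and SLC25A45.

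Of the 4 carboxylate carriers, SLC25A10 (gene ID 1468) fell and the others did not pass the threshold, beside 8.11% of all tested genes called lower. SLC25A10 lies in the highest of 10 bins by mean FPKM, where 35.4% of all genes were called lower. SLC25A10 exchanges malate or succinate for phosphate. It had 95.3 and 91.8 FPKM in the OE libraries and 112 and 115 FPKM in the EV libraries. The groups were well apart, at a ratio of 0.814 (log2 fold change -0.30, SE 0.0441, edgeR adjusted p = 9.72e-06), and the call held in all 12 alternatives with adjusted p up to 0.0422. MRPL12, its neighbour in the annotation, had a log2 fold change of -0.07 (adjusted p = 0.486) and was named after its value was seen.

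The citrate carrier SLC25A1, which feeds cytosolic acetyl-CoA, had 90.03 and 87.39 FPKM in OE libraries and 84.4 and 85.7 FPKM in EV libraries. Both OE libraries were above both EV libraries, but the difference was small (log2 fold change 0.06, 95% interval -0.041 to 0.16, adjusted p = 0.476). The oxoglutarate-malate carrier SLC25A11 had 74.3 and 76.0 FPKM in OE libraries and 76.6 and 79.4 FPKM in EV libraries (log2 fold change -0.07, 95% interval -0.17 to 0.037, adjusted p = 0.428). For both carriers the interval lies within a change of 1.2-fold in either direction.

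SLC25A21, the oxodicarboxylate carrier of lysine and tryptophan breakdown, had 71 and 65 expected counts in OE libraries and 74 and 77 in EV libraries (log2 fold change -0.38, 95% interval -0.79 to 0.023). Its FPKM also depends on the length listed for it in each library, which was 1960 and 2336 bases in the OE libraries and 2106 and 2338 bases in the EV libraries. That spread of 19.3% was the largest among the 17 members whose length differed between libraries, and the shorter length was that of replicate 1 in each group.

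Among 8 tested amino acid and carnitine carriers 1 rose and none fell, beside 7.91% of all tested genes called higher and 8.11% called lower. SLC25A29, which carries arginine, lysine and other basic amino acids, had 26.5 and 24.6 FPKM in OE libraries and 21.7 and 19.4 FPKM in EV libraries. Both OE libraries were higher (log2 fold change 0.29, SE 0.0816, edgeR adjusted p = 0.0112). Leaving out OE replicate 1 (adjusted p = 0.0859) or EV replicate 2 (0.163) ended the call, as did the DESeq2 Wald test (0.0797) and limma, and adjusted p spanned 0.00444 to 0.163 over the alternatives. YY1, a neighbour of SLC25A29 in the annotation, had 30.1 FPKM in both OE libraries and 31.4 and 30.5 FPKM in the EV libraries (log2 fold change -0.05, adjusted p = 0.609).

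Ornithine, aspartate and glutamate carriers did not pass the threshold. The ornithine carrier SLC25A15 had 24.9 and 25.5 FPKM in OE libraries and 28.6 and 26.7 FPKM in EV libraries. Both OE libraries were lower, at a log2 fold change of -0.15 (adjusted p = 0.0728). The aspartate-glutamate carriers SLC25A12 and SLC25A13, a part of the malate-aspartate shuttle, had log2 fold changes of 0.13 (adjusted p = 0.562) and -0.14 (adjusted p = 0.291). SLC25A12 made up 27.9% and 28.7% of their summed FPKM in OE libraries, against 25.4% and 23.8% in EV libraries, and this shift was not tested. The glutamate carrier SLC25A22 had 26.3 and 28.1 FPKM in OE libraries and 25.8 and 29.1 FPKM in EV libraries, so that its groups overlapped (log2 fold change -0.03, 95% interval -0.17 to 0.12). The carnitine-acylcarnitine carrier SLC25A20 (log2 fold change -0.11), the glycine carrier SLC25A38 (0.0021) and the branched-chain amino acid carrier SLC25A44 (0.03) had adjusted p of 0.657, 0.99 and 0.825. SLC25A18, a second glutamate carrier gene, had 2 and 6 expected counts in OE libraries and 2 and 5 in EV libraries, too few for a test.

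None of the 9 tested nucleotide and cofactor carriers was called, beside 16.0% of all tested genes called in either direction. The pyrimidine nucleotide carrier SLC25A33 was the most abundant, at 71.5 and 74.1 FPKM in OE libraries and 75.1 and 78.3 FPKM in EV libraries (log2 fold change -0.09, 95% interval -0.21 to 0.026, adjusted p = 0.321). Its paralogue SLC25A36 had a log2 fold change of 0.08 (95% interval -0.053 to 0.21). The NAD carrier SLC25A51 was at 25.6 and 23.7 FPKM in OE libraries and 23.4 and 25.4 FPKM in EV libraries, with overlapping groups. Its near-identical copy SLC25A52 had 3.35 expected counts in EV replicate 2 and 0 elsewhere, and the pseudogene SLC25A51P1 had 2.4 in OE replicate 1 and 0 elsewhere. Reads of these 3 copies cannot be assigned with certainty. The folate and FAD carrier SLC25A32 (log2 fold change -0.10), the S-adenosylmethionine carrier SLC25A26 (-0.0026), the coenzyme A carrier SLC25A42 (0.03), SLC25A16 (-0.11) and the peroxisomal carrier SLC25A17 (0.04) had adjusted p of at least 0.476.

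Of the 4 iron and glutathione carriers, 1 rose and 1 fell, beside 7.91% of all tested genes called higher and 8.11% called lower. The fall, SLC25A39, lies in the highest of 10 bins by mean FPKM, where 35.4% of all genes were called lower. SLC25A37 (gene ID 51312, mitoferrin-1), which brings iron to heme and iron-sulfur cluster synthesis, had 44.2 and 40.7 FPKM in OE libraries and 35.5 and 36.6 FPKM in EV libraries. Both OE libraries were higher (log2 fold change 0.22, SE 0.0698, edgeR adjusted p = 0.0245). SLC25A39 (gene ID 51629), which carries glutathione into the matrix, had 98.1 and 92.4 FPKM in OE libraries and 108 and 105 FPKM in EV libraries. Both OE libraries were lower (log2 fold change -0.18, SE 0.0488, adjusted p = 0.00955). Their paralogues were not called, with log2 fold changes of -0.09 for SLC25A28, mitoferrin-2 (adjusted p = 0.768), and 0.13 for SLC25A40 (adjusted p = 0.468); the difference between paralogues was not tested. The SLC25A37 call ended when OE replicate 1 (adjusted p = 0.215), EV replicate 1 (0.184) or EV replicate 2 (0.0584) was left out and with the DESeq2 Wald test (0.132) or limma, over a span of 0.00737 to 0.215. The SLC25A39 call ended when OE replicate 2 (adjusted p = 0.0839) or EV replicate 1 (0.112) was left out, with trends removed (0.125, log2 fold change -0.11) and with the DESeq2 Wald test (0.0516) or limma, over a span of 0.00268 to 0.125.

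The uncoupling protein-like carriers all had higher values in OE libraries and none was called. SLC25A14 (UCP5) had 5.86 and 6.07 FPKM in OE libraries and 4.20 and 3.77 FPKM in EV libraries, SLC25A27 (UCP4) had 4.17 and 3.96 FPKM in OE libraries and 3.35 and 3.10 FPKM in EV libraries, and SLC25A30 had 17.9 and 19.2 FPKM in OE libraries and 17.5 and 17.2 FPKM in EV libraries. In all 3 genes both OE libraries lay above both EV libraries. Of all tested genes 55.0% had groups that did not overlap, which counts both directions, and the share above alone was not taken. SLC25A14 had the largest absolute value among the members, a log2 fold change of 0.56 (SE 0.215), but on 79 and 80 expected counts in OE libraries and 51 and 41 in EV libraries its adjusted p was 0.073, and it spanned 0.0494 to 0.272 over the alternatives. SLC25A27 was at 0.31 (adjusted p = 0.271) and SLC25A30 at 0.08 (adjusted p = 0.499).

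Among members whose substrate is treated as not settled, 1 of 5 tested rose, beside 7.91% of all tested genes called higher. SLC25A45 (gene ID 283130) had 21.0 and 20.8 FPKM in OE libraries and 15.7 and 17.0 FPKM in EV libraries. It was the called member with the highest ratio, 1.27 (log2 fold change 0.34, SE 0.0895, edgeR adjusted p = 0.0072). Leaving out EV replicate 1 ended the call (adjusted p = 0.104), as did the DESeq2 Wald test (0.0656) and limma, over a span of 0.00321 to 0.104. Its counts were fractional. FRMD8, its neighbour in the annotation, had 13.1 and 12.6 FPKM in OE libraries and 13.1 and 13.2 FPKM in EV libraries (adjusted p = 0.782). SLC25A35 (log2 fold change 0.24), SLC25A34 (0.14), SLC25A53 (-0.31) and SLC25A46, which acts in the outer membrane on mitochondrial shape (-0.06), had adjusted p from 0.187 to 0.748. SLC25A43 and SLC25A48 had at most 7 expected counts in any library and were not tested.

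**Figure D3:**
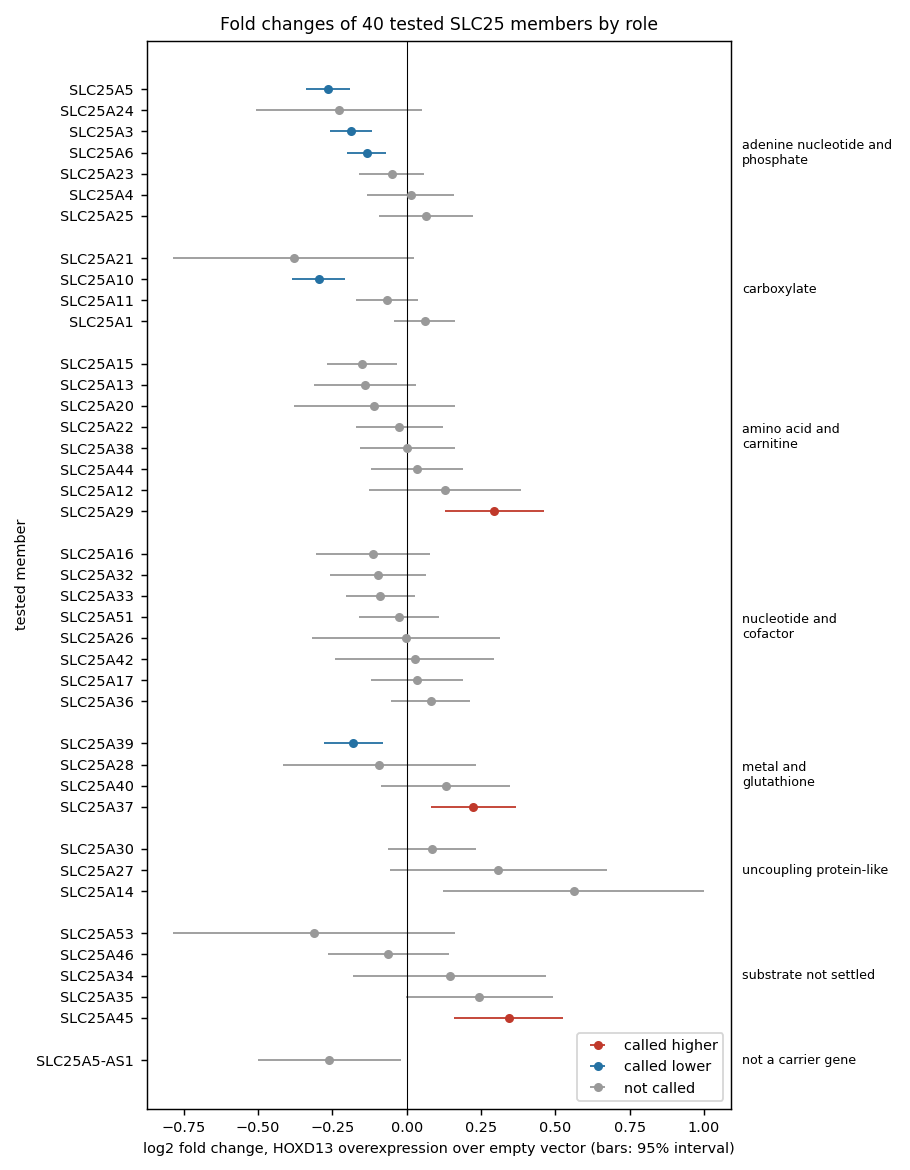
Log2 fold change of each of 40 tested members, OE over EV, grouped by role, with points for the estimate and bars for the 95% interval. The 5 called falls are in the adenine nucleotide and phosphate, carboxylate, and metal and glutathione groups, and the intervals widen for members with few counts such as SLC25A14 and SLC25A21.

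The called falls were all of highly expressed carriers. With tested genes put in 10 bins by mean FPKM, all 5 were among the 8 members of the highest bin (at least 55.0 FPKM), and none of the 33 members in lower bins was called lower. The called rises SLC25A45, SLC25A29 and SLC25A37 lay in bins 7, 8 and 9, counted from the lowest. In these bins 9.14%, 10.6% and 11.3% of all genes were called higher. Across the transcriptome, 35.4% of the 1412 genes in the highest bin were called lower and 15.5% higher, while no member there was called higher. The median log2 fold change there was -0.16 for the 8 members and -0.09 for all genes, and in the lower bins together it was 0.0021 for members and 0.02 for all genes. Over all genes the median was 0.16 in the lowest bin. The members' part in that trend, or its part in their falls, was not tested. With expression and length trends removed from each library, SLC25A5 (log2 fold change -0.19), SLC25A10 (-0.24) and SLC25A3 (-0.13) were still called lower and all 3 rises were still called, while SLC25A6 (-0.079, adjusted p = 0.0877) and SLC25A39 (-0.11, adjusted p = 0.125) were not.

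**Figure D4:**
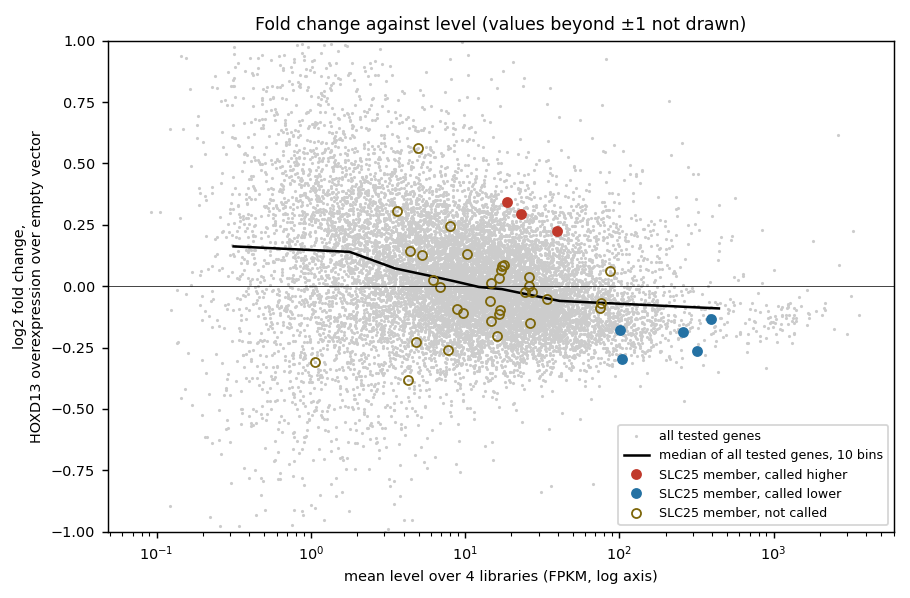
Log2 fold change, OE over EV, against the mean level in FPKM on a log axis for all tested genes (grey) and the SLC25 members (circles, filled where called); the black line joins the medians of 10 bins of equal size. The line runs from 0.16 in the lowest bin to -0.09 in the highest, and the called falls lie below it at the right while the called rises lie above it in the middle.

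Of the 41 tested members, 28 had both OE libraries on one side of both EV libraries in CPM, 10 above and 18 below, beside 55.0% of all tested genes. That is 68.3% of the members. The 33 uncalled members included 3 with an unadjusted p under 0.05 (SLC25A15, SLC25A14 and SLC25A5-AS1). For 14 of the 33 the 95% interval lay within a change of 1.2-fold in either direction, and for 29 within 1.5-fold.

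Family members named by other symbols were not called. MTCH1 and MTCH2, outer membrane members that take part in protein insertion, had log2 fold changes of 0.05 (edgeR adjusted p = 0.508) and -0.11 (adjusted p = 0.105). The uncoupling protein gene UCP3 had 0.63 and 0.67 FPKM in OE libraries and 0.69 and 0.50 FPKM in EV libraries, and UCP2 had at most 0.09 FPKM. The carriers SLC25A2, SLC25A31 and SLC25A47 were not analysed here, since no gene was listed under these symbols in the deposited expression data.

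Other transporters of the mitochondrial membranes gave 2 rises and 3 falls among 22 tested, beside 7.91% of all tested genes called higher and 8.11% called lower, at a median log2 fold change of -0.0068. The outer membrane pores VDAC1 (log2 fold change -0.16, edgeR adjusted p = 0.0016) and VDAC2 (-0.16, adjusted p = 0.0218) fell, through which carrier substrates reach the inner membrane. VDAC1 had 191 and 197 FPKM in OE libraries and 214 FPKM in both EV libraries. VDAC1 and VDAC2 lie in the highest of 10 bins by mean FPKM, where 35.4% of all genes were called lower. The sideroflexin gene SFXN3 (0.26, adjusted p = 0.0211) and the porphyrin transporter gene ABCB6 (0.18, adjusted p = 0.0398) rose. LETM1, an ion exchanger gene of the inner membrane named after its value was seen, was the other fall (-0.15, adjusted p = 0.017). The pyruvate carrier genes MPC1 and MPC2 were not called (log2 fold changes -0.01 and -0.0036). The VDAC2 call ended without OE replicate 1 (0.167) or EV replicate 1 (0.257) and with trends removed (0.254, log2 fold change -0.085), over a span of 0.00504 to 0.257. SFXN3 was not called without OE replicate 1 (0.0672), OE replicate 2 (0.052) or EV replicate 1 (0.181), over a span of 0.0134 to 0.181, and ABCB6 not without OE replicate 2 (0.205), EV replicate 1 (0.369) or EV replicate 2 (0.0555), over a span of 0.0238 to 0.369. LETM1 was not called without EV replicate 1 or EV replicate 2, over a span of 0.0101 to 0.162. VDAC1 kept its call without any 1 library, over a span of 4.78e-05 to 0.0801. With limma at either pseudocount, none of VDAC1, VDAC2, SFXN3, ABCB6 and LETM1 was called.

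Of 41 tested enzymes of metabolic steps before or after the carriers, 10 fell, 2 rose and 29 were not called. Of all tested genes 8.11% were called lower and 7.91% higher. The median log2 fold change was -0.07, beside 0.0038 over all tested genes. GOT2, MDH2, CS, PYCR1, MTHFD1 and MTHFD2, among the falls, lie in the highest bin by level, where 35.4% of all genes were called lower. Of the malate-aspartate shuttle enzymes, the aspartate aminotransferases GOT1 (log2 fold change -0.24, edgeR adjusted p = 0.00456) and GOT2 (-0.25, adjusted p = 0.000181) and the mitochondrial malate dehydrogenase MDH2 (-0.15, adjusted p = 0.014) fell, while the cytosolic MDH1 (-0.07, adjusted p = 0.562) and the carriers SLC25A11, SLC25A12 and SLC25A13 were not called. GOT2 had 88.2 and 96.9 FPKM in OE libraries and 110 and 107 FPKM in EV libraries. Citrate synthase CS fell to 126 and 132 FPKM in OE libraries, against 148 FPKM in both EV libraries (-0.22, adjusted p = 5.38e-05), and the citrate-cleaving enzyme ACLY was at -0.03 (adjusted p = 0.575). The malic enzyme ME1 (-0.37, adjusted p = 0.000464) and the pyruvate carboxylase PC (-0.25, adjusted p = 0.0367) also fell. The carnitine acyltransferases CPT1A (0.23, adjusted p = 5.25e-05) and CRAT (0.28, adjusted p = 0.00357) rose beside an uncalled SLC25A20. ALAS1, which starts heme synthesis, fell (-0.22, adjusted p = 0.0276) beside the rise of SLC25A37. GOT1, MDH2, CS, CPT1A, ALAS1, PYCR1, MTHFD1 and MTHFD2 were named after their values were seen.

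Several of these calls ended when a library was left out. Such fits, with 1 library in a group, also made fewer calls over all genes. The PC value was -0.12 without OE replicate 1 (adjusted p = 0.473), -0.40 without OE replicate 2 (0.000557) and -0.20 without EV replicate 2 (0.194), and its adjusted p spanned 0.000557 to 0.473. MDH2 was at -0.084 without OE replicate 1 (0.229) and -0.059 with trends removed (0.381), and was also not called without EV replicate 2 (0.108), over a span of 5.93e-05 to 0.381. GOT1 was not called without EV replicate 2 (0.0747), over a span of 0.00111 to 0.0801. ALAS1 was not called without OE replicate 1 (0.143) or EV replicate 1 (0.254) or with trends removed (0.0659), over a span of 0.0165 to 0.254. The calls of ME1, GOT2, CS, CPT1A and CRAT held without any 1 library, and with limma on log2(FPKM + 1) CPT1A alone of these 9 enzymes was called.

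The last lists held regulators of mitochondrial gene expression and genes for the import of carriers to the inner membrane, among them the small TIMM chaperones, and 8.11% of all tested genes were called lower and 7.91% higher. Of 14 tested regulators 4 fell and none rose, at a median log2 fold change of -0.15: MYC (-0.26, edgeR adjusted p = 5.78e-05), the mitochondrial RNA polymerase POLRMT (-0.23, adjusted p = 0.0171), the mitochondrial helicase C10orf2 (-0.28, adjusted p = 0.0491) and the coactivator PPRC1 (-0.17, adjusted p = 0.0333). Of 10 tested import genes 3 fell and none rose, at a median of -0.15: TIMM10 (-0.33, adjusted p = 0.012), TIMM8A (-0.32, adjusted p = 0.0428) and TIMM13 (-0.26, adjusted p = 0.00141). TIMM13 had 48.7 and 52.6 FPKM in OE libraries and 60.0 and 60.4 FPKM in EV libraries. MYC, TIMM10 and TIMM13 lie in the highest of 10 bins by mean FPKM. In that bin 35.4% of all genes were called lower, at a median log2 fold change of -0.09. POLRMT, C10orf2, PPRC1 and TIMM8A lie in lower bins. The part of level in these falls was not tested. The MYC and TIMM13 calls held without any 1 library, and with limma MYC was the 1 of these 7 genes still called. TIMM10 was not called without OE replicate 1 (0.0635) or EV replicate 1 (0.188) or with trends removed (0.0864), over a span of 0.00467 to 0.188. TIMM8A was not called without OE replicate 1 (0.28), EV replicate 1 (0.0579) or EV replicate 2 (0.19) or with trends removed (0.0673), over a span of 0.0258 to 0.28. POLRMT was not called without OE replicate 2 (0.0527) or EV replicate 2 (0.216), over a span of 0.00804 to 0.216. PPRC1 was not called without OE replicate 1 (0.247), EV replicate 1 (0.185) or EV replicate 2 (0.0927), over a span of 0.014 to 0.247. The C10orf2 call ended when any 1 of the 4 libraries was left out (0.0577 to 0.22), over a span of 0.035 to 0.22.

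**Figure D5:**
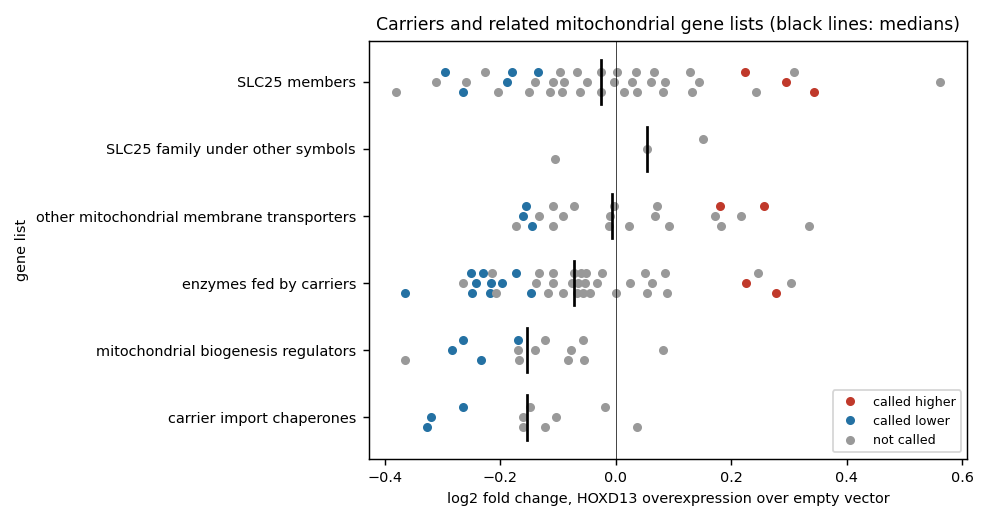
Log2 fold change, OE over EV, of the tested SLC25 members (top row) and of 5 lists of related mitochondrial genes, 1 point a gene, coloured by call, with black lines at the medians. The medians of the regulators and of the import genes lie near -0.15, and that of the SLC25 members at -0.03.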

How the data were processed

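Each library table holds expected counts, gene lengths (another value, in bases) and FPKM per gene, as deposited and per the file headers; Bowtie2 and RSEM are named as tools and hg18 and hg19 as builds, per the submitters' processing notes. Neither tool versions nor what each build was used for could be taken from the labels. A deposited table of FPKM for all libraries equalled the library tables. Genes missing from a library were given 0. Members and gene lists were chosen with earlier results of these data known.

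Expected counts were rounded and tested with edgeR 4.0.16 (R 4.3.3; TMM factors 0.995 to 1.01, filterByExpr, robust quasi-likelihood fit, biological coefficient of variation 2.70%). Calls use a Benjamini-Hochberg adjusted p under 0.05 over 14112 genes, and a standard error is the absolute log2 fold change over the square root of F. Intervals are 95%. Counts are called fractional beyond 0.01 of a whole number, which held for 10 of the 41 tested members. Replicate pairs differed by more than sampling noise (chi-square over degrees of freedom 1.755 for OE, 1.573 for EV). The test code was also run on simulated counts, and that run is not used here as support for any call.

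In full are given called members and the 5 most abundant uncalled ones, and up to 4 called genes of each list. Alternatives were DESeq2 1.42.0 (size factors, Wald test), limma 3.58.1 on log2(FPKM + pseudocount), with pseudocounts of 1 and 0.1 and a minimum of 1 FPKM in any 2 libraries, a replicate block, each library left out (the lone library then being assumed to vary like the other group), tests with all genes kept or with those of mean count 50 or more, expression and length trends removed (mgcv 1.9.3) and an adjusted p under 0.01. The RefSeq promoter table matched 39 of 47 members; apart from these promoter windows, on GRCh38.p14, no coordinates are given, since that build is not one the submitters name. Values of 1 tested member and 1 promoter sequence are not reported here, though counts over members include them.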

Additional observations from a re-analysis of the deposited data

How the results depend on the processing

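The count of members called higher, 3, was 0 with the DESeq2 Wald test, 0 with limma at either pseudocount and 1 at an adjusted p under 0.01; it ranged from 1 to 3 over the 4 fits that leave out a library. The count called lower, 5, was 3 with limma at either pseudocount and 3 with trends removed, and ranged from 3 to 5 over left-out libraries; the DESeq2 Wald test called 4. Of the 5 context lists together, 4 genes were higher and 20 lower; these were 2 and 11 with the DESeq2 Wald test, 1 and 1 with limma on log2(FPKM + 1), 0 and 1 on log2(FPKM + 0.1), 2 and 10 at an adjusted p under 0.01, and 2 to 4 and 12 to 18 over left-out libraries. Over all genes, 1116 higher and 1144 lower calls became 467 and 598 with the DESeq2 Wald test, 264 and 162 with limma on log2(FPKM + 1), 248 and 147 on log2(FPKM + 0.1), 647 and 633 at an adjusted p under 0.01 and 751 to 927 and 714 to 1064 over left-out libraries. Labels do not say that replicate numbers pair libraries, and deviations of same-numbered libraries correlated at 0.07; with the number as a block, 3 members were higher and 5 lower, as without it, and no called member lost its call. SLC25A14 was called at a mean of at least 50 counts (log2 fold change 0.57, adjusted p = 0.0494). Of 476 member values under alternatives, 422 kept direction and side of the threshold, 25 lost a call and 28 changed sign, none of them for a called member; the DESeq2 Wald test gave no adjusted p for 16 tested members. Sign changes were SLC25A51 at 0.015 and 0.015 with limma at pseudocounts 1 and 0.1, SLC25A42 at -0.018 with trends removed, SLC25A38 at -0.0024 with the DESeq2 Wald test and -0.00015 with no filter, and SLC25A26 at 0.0072 with a mean of at least 50 counts, 0.040 and 0.047 with limma at pseudocounts 1 and 0.1 and 0.0081 with the block. Over left-out libraries SLC25A40 ranged from -0.0047 to 0.29, SLC25A34 from -0.025 to 0.32, SLC25A25 from -0.0084 to 0.13, SLC25A46 from -0.13 to 0.0033, SLC25A28 from -0.28 to 0.10, SLC25A17 from -0.0077 to 0.077, SLC25A44 from -0.032 to 0.10, SLC25A51 from -0.071 to 0.013, SLC25A22 from -0.12 to 0.065, SLC25A42 from -0.11 to 0.16, SLC25A4 from -0.0072 to 0.031, SLC25A38 from -0.024 to 0.026 and SLC25A26 from -0.22 to 0.28. The cause of these changes was not tested. SLC25A14, SLC25A21, SLC25A27 and SLC25A53, the 4 uncalled members whose 95% interval reaches past 1.5-fold, had 41 to 101 counts a library.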
